A study of Homo sapiens with 17 samples.

Results

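GABARAPL1, SQSTM1 and ATG5 are 3 genes of the autophagy pathway, and they were followed over 17 expression arrays of human breast cells as 3 of the 17687 genes measured. Each was read from 1 probe set, matched by its gene symbol and Entrez identifier (23710 for GABARAPL1, 8878 for SQSTM1 and 9474 for ATG5). GABARAPL1 and SQSTM1 were chosen by their values on these arrays: the difference between Maraviroc IC50 and ethanol, and for GABARAPL1 also the differences between DZH_2 and DMSO. ATG5 was chosen with the results of the same comparisons known. The differences used to choose GABARAPL1 and SQSTM1 are therefore given as descriptions, with no test, and ATG5 is likewise not tested for Maraviroc IC50. All 3 genes were chosen with earlier results of these data known, so p-values given for them elsewhere are not independent tests.

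The arrays asked which transcripts changed when breast cells were exposed to Maraviroc, a drug used against HIV, or to DZH_2, a compound that the labels give by code name alone. MDA-MB-231, a mesenchymal line from a triple-negative breast cancer, gave 13 arrays: 2 each of Maraviroc IC20, Maraviroc IC50, their solvent ethanol, DZH_2 IC20, DZH_2 IC50 and their solvent DMSO, and 1 of untreated cells. IC20 and IC50 are the doses that inhibit by 20% and 50%, and no concentration stands in the labels. Cells were grown for 24 h after seeding and then treated for 48 h. The other 4 arrays were titled MCF10, a non-tumorigenic mammary epithelial line, with 1 array each of untreated cells, DMSO, DZH_2 IC20 and DZH_2 IC50. The cell line field of those 4 arrays names MDA-MB-231, and the titles were followed. The labels do not say whether replicates were separate cultures, so the p-values rest on a spread between arrays that may be only technical.

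Autophagy encloses cytoplasm in a membrane, the autophagosome, that fuses with the lysosome, where the contents are broken down. Ubiquitin-like proteins of the ATG8 family, the LC3 and GABARAP proteins, are attached to lipid of the growing membrane, and the ATG12-ATG5-ATG16L1 complex directs that attachment. GABARAPL1 is an ATG8 family protein, ATG5 is the subunit of that complex to which ATG12 is joined, and SQSTM1 (p62) is a cargo receptor that binds ubiquitinated cargo and ATG8 proteins and is itself degraded with the cargo. SQSTM1 also binds KEAP1, the inhibitor of the transcription factor NRF2, and is an NRF2 target. The arrays measured transcripts, not autophagic flux.

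The start of GABARAPL1 is shown because this gene had the largest difference of the 3 and its promoter was the only one of theirs in which a searched motif was found. The sequence runs from 150 bases before to 30 bases from the start on, on the plus strand at chr12:10212727-10212906 of GRCh38.p14, as RefSeq gives it. Capitals mark TGACGTCA, the full cAMP response element.
GABARAPL1: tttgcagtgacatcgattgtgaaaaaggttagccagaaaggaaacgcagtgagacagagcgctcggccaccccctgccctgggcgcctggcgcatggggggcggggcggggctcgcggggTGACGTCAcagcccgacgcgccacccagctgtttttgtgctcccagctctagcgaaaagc
The search covered 5 motifs on both strands in the 6 RefSeq promoter windows of the 3 genes, 1 for GABARAPL1, 3 for SQSTM1 and 2 for ATG5, each 300 bases long with 250 bases before the start. Of 35116 promoter windows of that length, 7.26% held CACGTG (the E-box of the CLEAR element), 13.3% TGACNNNGC (the core of the antioxidant response element), 3.42% GTAAACA (forkhead), 7.71% TGANTCA (AP-1) and 1.85% TGACGTCA. The last motif was added after the GABARAPL1 window had been read. It lay with its first base 30 bases before the start of GABARAPL1, and none of the other 4 motifs was found in the 6 windows. A match describes letters in this window and is not evidence of binding.

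The Maraviroc IC50 arrays stood apart from the other MDA-MB-231 arrays in several measures. The SD between replicates over genes was 0.546 for Maraviroc IC50 and 0.277 to 0.366 for the other groups, and replicates correlated at 0.960 for Maraviroc IC50 and 0.984 to 0.991 elsewhere. The interquartile range of signal was 4.05 and 4.07 on the Maraviroc IC50 arrays and 4.21 to 4.65 on the other MDA-MB-231 arrays. Their median signal was 6.84 and 6.90, against 7 to 7.08 on the others, and the 75th percentile of their negative control probe sets was 6.42 and 6.46, against 5.64 to 6.27. The part of these differences in the results was not tested.

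GABARAPL1 was highest in Maraviroc IC50, where its log2 signal was 14.88 and 15.04 on the 2 arrays. The ethanol arrays gave 9.00 and 9.65, and the Maraviroc IC20 arrays 9.62 and 9.68. Both IC50 arrays lay far above every other MDA-MB-231 array, whose values ran from 8.38 to 11.38, whereas IC20 and ethanol overlapped. The mean of 14.96 ± 0.117 (SD, n = 2) at IC50 stood 5.64 above the ethanol mean of 9.32 ± 0.457 (SD, n = 2), a 49.8-fold difference, and that difference ranked 5 among 17687 genes. At IC20 the mean of 9.65 ± 0.048 (SD, n = 2) differed from ethanol by 0.33 ± 0.32 (SE), which did not pass the test (limma, adjusted p = 1). That value was 0.00363 without ethanol replicate 1 and 0.65 without ethanol replicate 2. The step from IC20 to IC50 was 5.31 on the log2 scale.

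DZH_2 placed GABARAPL1 at an intermediate level at both doses. Its log2 signal was 11.38 and 11 at IC20, 11.07 and 10.90 at IC50, and 9.20 and 8.38 in DMSO. All 4 DZH_2 arrays lay above both DMSO arrays, and the 2 doses overlapped. Such a position above DMSO was held by 4008 of all 17687 genes at IC20 and 4687 at IC50. The log2 difference from DMSO was 2.40 at IC20 (5.27-fold) and 2.19 at IC50 (4.58-fold), which ranked 18 and 28 among all genes. Both doses were compared with the same DMSO arrays. The 5 control arrays of MDA-MB-231 (untreated, DMSO and ethanol) spanned 8.38 to 9.65 with a median of 9.20, and ethanol differed from DMSO by 0.53 ± 0.32 (SE; limma, adjusted p = 0.747). GABARAPL1 has a near-identical pseudogene copy, GABARAPL3, so its probe set may not read 1 gene alone.

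**Figure D1:**
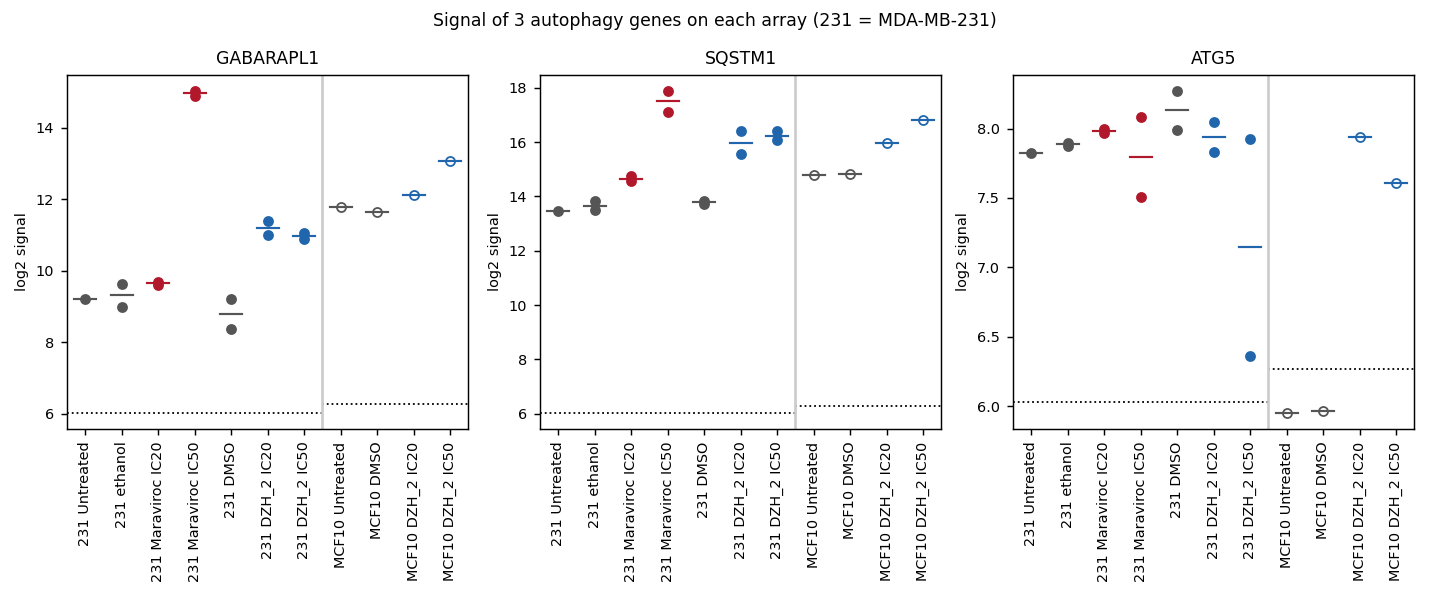
The log2 signal (vertical axis) of GABARAPL1, SQSTM1 and ATG5 on each of the 17 arrays, by group (horizontal axis); each point is 1 array (open for MCF10), short lines are group means and dotted lines mark the 75th percentile of the negative controls, 6.03 in MDA-MB-231 and 6.27 in MCF10. GABARAPL1 reaches 14.88 and 15.04 in Maraviroc IC50, above all other arrays, SQSTM1 is highest on the same 2 arrays, and ATG5 has 1 low array, at 6.36, in DZH_2 IC50.

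SQSTM1 rose with DZH_2 at both doses. Its log2 signal was 16.40 and 15.57 at IC20 and 16.40 and 16.07 at IC50, against 13.74 and 13.84 in DMSO. The 4 DZH_2 arrays lay above all DMSO arrays, and the 2 doses overlapped. Of all 17687 genes, 4008 had both IC20 arrays above both DMSO arrays, and 4687 had both IC50 arrays above them. The rise was 2.19 ± 0.33 (SE) at IC20 (4.57-fold; limma, adjusted p = 0.0154) and 2.44 ± 0.33 at IC50 (5.44-fold; limma, adjusted p = 0.00799). At these thresholds 0.871% of all genes were called at IC20 and 1.57% at IC50, and SQSTM1 was called and ATG5 was not. The dose step of 0.25 ± 0.33 did not pass (limma, adjusted p = 0.999).

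The direction of SQSTM1 was the same without any single array, but the call was lost in 3 of the 4 omissions at each dose. Each omission left 1 array in a group, and calls over all genes also became fewer. A lost call there is therefore not particular to SQSTM1. At IC20 the difference was 1.78 without DZH_2 IC20 replicate 1 (limma, adjusted p = 0.0609), 2.14 without DMSO replicate 1 (adjusted p = 0.223) and 2.24 without DMSO replicate 2 (adjusted p = 0.14), and the call held, at 2.61, without DZH_2 IC20 replicate 2 (adjusted p = 0.0452). At IC50 it was 2.27 without DZH_2 IC50 replicate 1 (adjusted p = 0.0739), 2.39 without DMSO replicate 1 (adjusted p = 0.127) and 2.50 without DMSO replicate 2 (adjusted p = 0.0841), and the call held, at 2.61, without DZH_2 IC50 replicate 2 (adjusted p = 0.0495).

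SQSTM1 was also highest in Maraviroc IC50. Its log2 signal was 17.90 and 17.12 there, 14.75 and 14.56 at Maraviroc IC20, and 13.50 and 13.83 in ethanol. The 3 groups did not overlap and followed the dose. Of all 17687 genes, 5679 had both IC50 arrays above both ethanol arrays, and 2694 had both IC20 arrays above them. The difference at IC50 was 3.85 (14.4-fold), which ranked 17 among all genes, from means of 17.51 ± 0.553 (SD, n = 2) and 13.67 ± 0.232 (SD, n = 2). At IC20 the difference was 0.99 ± 0.33 (SE), rank 44, and it did not pass the test (limma, adjusted p = 1, unadjusted p = 0.0115). No gene passed in that comparison (0% of genes called, 309 at an unadjusted p under 0.05 with limma).

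The compounds were set side by side at IC20, each against its own solvent. SQSTM1 differed by 1.2 ± 0.47 (SE), with DZH_2 above Maraviroc, and did not pass (limma, adjusted p = 0.626, unadjusted p = 0.0252). ATG5 differed by -0.29 ± 0.57 (adjusted p = 0.96). GABARAPL1 differed by 2.07, which was not tested. Of all genes 0% were called there, with 1273 at an unadjusted p under 0.05 with limma. In the 5 control arrays SQSTM1 spanned only 13.48 to 13.84, and ethanol differed from DMSO by -0.13 ± 0.33 (limma, adjusted p = 0.975). Between the solvents 0% of genes were called (1352 at an unadjusted p under 0.05), and between the doses of DZH_2 also 0% (721 at an unadjusted p under 0.05).

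ATG5 was not called in any comparison in which it was tested. Its log2 signal was 7.97 and 7.997 at Maraviroc IC20, 7.50 and 8.08 at Maraviroc IC50, and 7.87 and 7.90 in ethanol. It was 8.05 and 7.83 at DZH_2 IC20, 6.36 and 7.92 at DZH_2 IC50, and 8.27 and 7.99 in DMSO. Apart from the single array at 6.36, all 13 MDA-MB-231 arrays lay between 7.50 and 8.27. The differences from solvent were 0.10 ± 0.41 (SE) for Maraviroc IC20 (limma, adjusted p = 1) and -0.20 ± 0.41 for DZH_2 IC20 (adjusted p = 0.928). For Maraviroc IC50 the difference was -0.09, not tested. For DZH_2 IC50 it was -0.99 ± 0.41 (limma, adjusted p = 0.266, unadjusted p = 0.0305), and -0.21 without the low array, replicate 1. The SD between the 2 DZH_2 IC50 arrays was 1.10.

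Ordered by mean level within MDA-MB-231, GABARAPL1 ran from Maraviroc IC50 through DZH_2 IC20 and IC50, which overlapped, to Maraviroc IC20, ethanol, untreated and DMSO, in which each group overlapped the next. SQSTM1 ran from Maraviroc IC50 through DZH_2 IC50 and IC20, which overlapped, to Maraviroc IC20, DMSO and ethanol, the last 2 overlapping, and the untreated array at 13.48. ATG5 ran from DMSO through Maraviroc IC20, DZH_2 IC20 and ethanol, each overlapping the next, to untreated, Maraviroc IC50 and DZH_2 IC50. The untreated array of ATG5, at 7.83, lay below both ethanol arrays and inside the spread of its neighbour Maraviroc IC50.

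The other ATG8 genes did not share the size of GABARAPL1's difference. GABARAPL2, which acts in late autophagosome maturation, rose in Maraviroc IC50 from an ethanol mean of 7.85 to 10.54, by 2.69 ± 0.30 (SE; 6.45-fold; limma, adjusted p = 4.38e-05). MAP1LC3B, the usual autophagosome marker, rose by 1.31 ± 0.44 (adjusted p = 0.0438), and that call held in 5 of 12 alternative settings. It was lost with the replicate block, with array weights, with the compared groups alone, with all 5 control arrays, and without Maraviroc IC50 replicate 2, ethanol replicate 1 or ethanol replicate 2, with an adjusted p of up to 0.236. GABARAP gave -0.04 (adjusted p = 0.939), and MAP1LC3A, MAP1LC3B2 and MAP1LC3C gave 0.42, 0.45 and 0.51, none of which passed. MAP1LC3A was near the negative controls in every MDA-MB-231 group, and MAP1LC3C in all but Maraviroc IC50 (6.05, against a limit of 6.03). A change in either gene could therefore go unseen. With DZH_2 none of the 6 other ATG8 genes was called. GABARAP gave 0.76 at IC20 and 0.62 at IC50 (adjusted p = 0.244 and 0.293), and GABARAPL2 gave 0.62 and 0.39. MAP1LC3B and MAP1LC3B2 are near-identical, so their values cannot be assigned to 1 gene each.

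Of the 5 conjugation partners of ATG5, 1, ATG3, was called in Maraviroc IC50, where 27.0% of all genes were called, and none with DZH_2, where 0.871% and 1.57% were. ATG12, joined to ATG5, gave -0.15 in Maraviroc IC50 and -0.03 and -0.21 with DZH_2 IC20 and IC50, and was not called. ATG16L1, the third subunit, gave -0.55 in Maraviroc IC50 (limma, adjusted p = 0.122) and 0.97 and 0.21 with DZH_2 IC20 and IC50 (adjusted p = 0.0962 at IC20). ATG7, the activating enzyme for both conjugation reactions, gave 0.30, 0.23 and -0.27 in the same order. ATG3, which passes ATG8 proteins to lipid, fell by 1.10 ± 0.29 (SE) in Maraviroc IC50 (adjusted p = 0.0126), and ATG10, which passes ATG12 to ATG5, gave -1.12 (adjusted p = 0.0565). The call of ATG3 was lost with array weights, with the compared groups alone and without ethanol replicate 1, with an adjusted p of up to 0.0818.

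**Figure D2:**
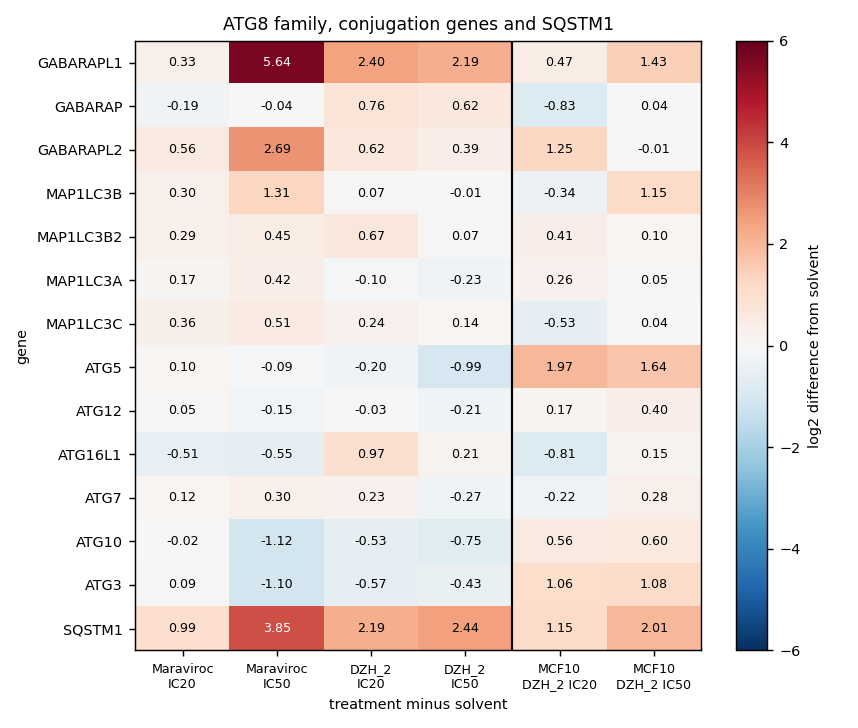
Log2 difference from solvent (colour scale and printed numbers) of GABARAPL1, its ATG8 family, the conjugation genes around ATG5, and SQSTM1 (rows), for each compound and dose (columns); columns right of the line are MCF10 with 1 array each. GABARAPL1 and SQSTM1 have the largest values, 5.64 and 3.85, in Maraviroc IC50, and ATG5 is 1.97 and 1.64 in MCF10.

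Across the rest of the pathway, 83 autophagy genes were listed beside the 3 genes and 76 were measured. In Maraviroc IC50 18 of them rose and 13 fell, which is 40.8% called, against 27.0% of all 17687 genes. Their median log2 difference was 0.32, against 0.11 for all genes. After the filter on dim genes, which left 11745 genes, the gap was narrower. Of the listed genes left 44.4% were called, against 39.3% of all genes left. With only the 4 arrays compared, 17 of the 76 (22.4%) were called against 13.6% of all genes, and without ethanol replicate 1, 20 (26.3%) against 16.9%. In Maraviroc IC20 none of the 76 was called (limma, 0 at an unadjusted p under 0.05), and in DZH_2 IC20 and IC50 also none (limma, 13 and 12 at an unadjusted p under 0.05). In DZH_2 IC20 52 of the 76 were higher and 24 lower, with a median of 0.26 against -0.002 for all genes, and the median was 0.08 against 0.04 in IC50. With array weights or without the Maraviroc IC50 arrays, 2 and 3 of the 76 (2.63% and 3.95%) were called at DZH_2 IC20, against 2.76% and 2.80% of all genes, and 4 (5.26%) at IC50 under each setting, against 5.33% and 4.73%. These shares are near those of all genes. The calls were of ATG16L1, ATG4B, ATG4C, ATG2A, ATG9A and VPS18.

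By role, the calls in Maraviroc IC50 fell on both sides, in lists of 5 to 15 genes. Of all 17687 genes 27.0% were called there (2122 rose and 2656 fell), and 39.3% of the 11745 genes left by the filter on dim genes. In the step that starts the membrane, 2 of 5 ULK complex genes and 4 of 8 genes of the ATG9, ATG2 and WIPI group rose and none fell. Of these 4, ATG9B was near the negative controls in both groups, at 4.53 in ethanol and 5.38 in Maraviroc IC50. Its call held in 5 of 11 alternative settings, and that of ATG9A in 8 of 12. ATG2A, a lipid transfer protein, rose by 2.23 ± 0.35 (SE; limma, adjusted p = 0.000498). In the PI3-kinase complex 2 of 7 rose and 1 fell, and AMBRA1, a regulator of Beclin 1, rose by 2.35 ± 0.28 (adjusted p = 7.02e-05). In conjugation 2 of 10 rose and 2 fell. The risers were the ATG8 proteases ATG4B, by 2.71 ± 0.36 (adjusted p = 0.00015), and ATG4D, by 2.07 ± 0.42 (adjusted p = 0.00283).

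Among the cargo receptors other than SQSTM1, 2 of 15 rose and 3 fell, which is 33.3% called against 27.0% of all genes. NCOA4, the receptor that takes ferritin to autophagosomes, fell by 1.39 ± 0.28 (SE; limma, adjusted p = 0.00267). The calls of the other 4, TAX1BP1, TOLLIP, FKBP8 and RTN3, which were picked after their values were seen, held in only 5 to 7 of 12 alternative settings. In fusion with the lysosome 1 of 13 rose and 4 fell, which is 38.5% called. VPS18, a shared subunit of the tethering complexes, rose by 2.08 ± 0.39 (adjusted p = 0.00179), while the fusion SNAREs SNAP29 and STX17 fell by 1.75 ± 0.38 (adjusted p = 0.00456) and 1.64 ± 0.40 (adjusted p = 0.00904). RAB7A and VPS33A, which serve the same step, fell by 1.33 ± 0.30 and 1.42 ± 0.29. Among regulators 3 of 12 rose and 3 fell, with DDIT4, an inhibitor of mTORC1, up by 3.25 ± 0.63 (adjusted p = 0.00212). PRKAA1, a catalytic subunit of AMPK, fell by 2.36 ± 0.35 (adjusted p = 0.000342). PRKAA2, the other catalytic subunit, fell by 1.82 ± 0.33 and, as STX17 did, ended near the negative control probe sets, which bounds how far it could fall. The call of SNAP29 was lost without ethanol replicate 2 (adjusted p = 0.0573). That of STX17 was lost without ethanol replicate 2, without Maraviroc IC50 replicate 1 and with the compared groups alone (adjusted p up to 0.0632), and that of RAB7A without ethanol replicate 1 and with the compared groups alone (adjusted p up to 0.0679).

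**Figure D3:**
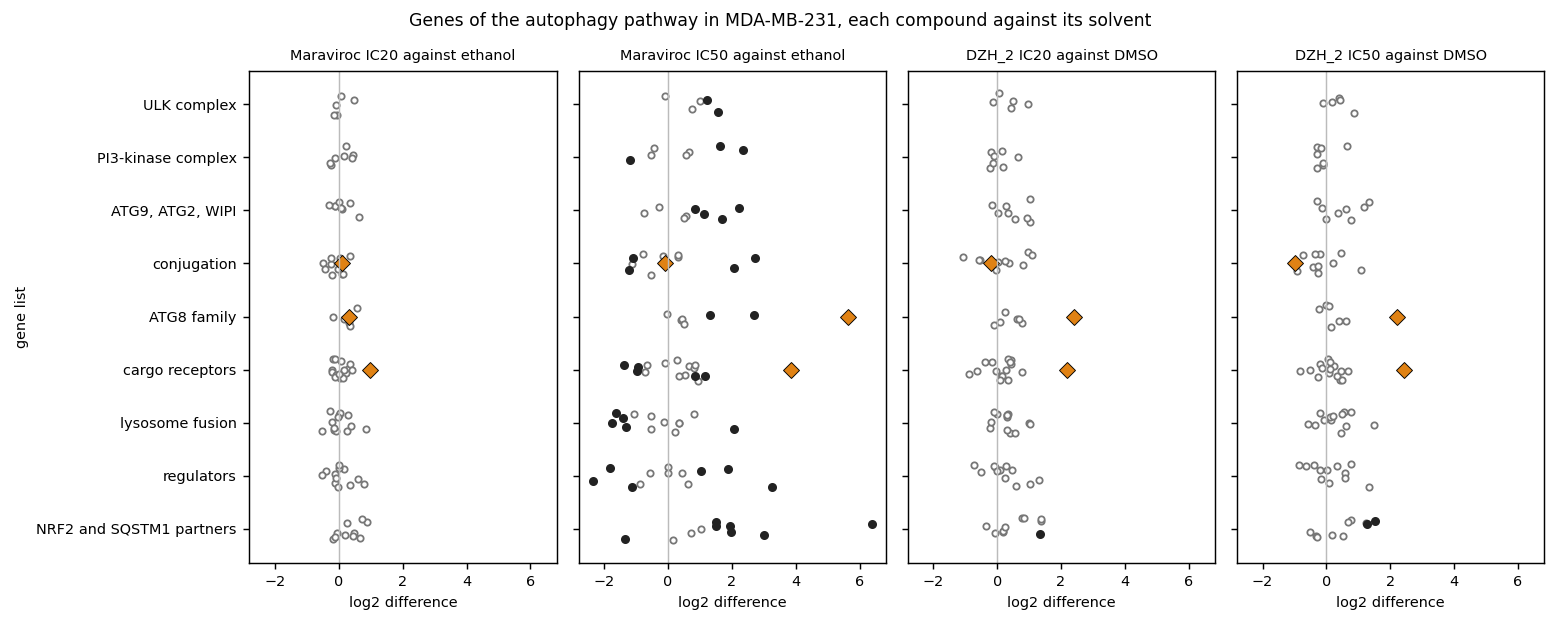
Log2 difference from solvent (horizontal axis) of each measured autophagy gene, by role (rows), with 1 panel per compound and dose; filled points passed the test, open points did not, and orange diamonds are GABARAPL1, SQSTM1 and ATG5. Filled points lie on both sides of 0 in Maraviroc IC50, 18 up and 13 down before the NRF2 row, and in the other panels only 1 gene at DZH_2 IC20 and 2 at DZH_2 IC50, all in the NRF2 row, are filled.

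A list of KEAP1, the gene that encodes NRF2, and NRF2 target genes held 12 genes, of which 10 were measured. In Maraviroc IC50 6 rose and 1 fell, with a median of 1.499, where 27.0% of all genes were called and their median was 0.11. HMOX1, heme oxygenase, rose by 6.39 ± 0.60 (SE; limma, adjusted p = 1.33e-05) from an ethanol mean of 5.39, near the negative controls, so the size depends on that floor. SRXN1, a redox enzyme, rose by 3.01 ± 0.31 (adjusted p = 2.4e-05), and KEAP1 by 1.51 ± 0.25 (adjusted p = 0.000761). NFE2L2, which encodes NRF2, fell by 1.33 ± 0.36 (adjusted p = 0.0146), a call lost with array weights and without ethanol replicate 2, with an adjusted p of up to 0.135.

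With DZH_2, 1 of the 10 rose at IC20 and 2 at IC50, where 0.871% and 1.57% of all genes were called. FTL, the light chain of ferritin, rose by 1.35 ± 0.25 (SE; limma, adjusted p = 0.0331) and by 1.27 ± 0.25 (adjusted p = 0.0315), and has many pseudogene copies that could share its probes. NQO1, a quinone reductase, gave 1.37 ± 0.31 at IC20 (adjusted p = 0.0669) and rose by 1.51 ± 0.31 at IC50 (adjusted p = 0.038). Each of these 3 calls was lost when any 1 of the 4 compared arrays was left out, with adjusted p up to 0.281, 0.258 and 0.243. HMOX1 gave 0.76 and 0.78 and was not called.

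In the arrays titled MCF10, SQSTM1 was higher with DZH_2 at both doses and in dose order. Its log2 signal was 15.96 at IC20 and 16.81 at IC50, against 14.81 in DMSO and 14.80 in untreated cells. The differences from DMSO were 1.15 (2.22-fold) and 2.01 (4.02-fold), and they rank 1558 and 241 among all genes. GABARAPL1 was 12.12, 13.08, 11.65 and 11.78 in the same order, which is 0.47 and 1.43 above DMSO. ATG5 was 7.94 and 7.61 with DZH_2 and 5.97 and 5.95 in DMSO and untreated cells, 1.97 and 1.64 above DMSO. Both control values were under 6.27, the 75th percentile of signal from negative control probe sets on these arrays, so the sizes depend on that floor. Each group is 1 array, so no difference has a replicate check, and both doses share 1 DMSO array. DMSO and untreated cells differed by at least 1 in 8.28% of genes. SQSTM1 and ATG5 were higher by at least 1 at both doses, a level reached by 4.52% of all genes, with 4.88% lower by that much. GABARAPL1 reached it at IC50 only.

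Of the 76 other autophagy genes 7 were higher at both doses in MCF10 (9.21%, against 4.52% of all genes) and 2 lower (against 4.88% of all genes). ATG3 gave 1.06 and 1.08, PIK3C3, the lipid kinase of the pathway, 1.82 and 2.01, and the cargo receptors OPTN and BNIP3L 1.17 and 1.92, and 1.12 and 2.04. WIPI2, which recruits ATG16L1, gave -1.99 and -1.22. Of the 10 measured genes of the KEAP1 and NRF2 list 3 were higher, FTL, SRXN1 and TXNRD1. MCF10 markers were mixed. Of 10 basal epithelial markers 6 were higher in the MCF10 controls by at least 1, such as KRT5 (9.30 against 4.53 in the MDA-MB-231 controls), but 5 were near the negative controls, CDH1 (4.07) among them. Of the 6 higher ones, CDH3 (6.24) and DSG3 (4.82) were near the negative controls in both lines. Of 11 mesenchymal markers 5 were higher and 5 lower, with FN1 at 17.6 against 9.94 and ZEB1 at 7.23 against 12.1. Of 9 fibroblast markers 4 were higher, such as DCN (10.45 against 5.59), and none lower. The controls titled MCF10 therefore differed from the MDA-MB-231 controls in markers of each list, but the markers did not settle whether these arrays hold MCF10.

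The genes most like each member over the 13 MDA-MB-231 arrays were found by the mean absolute difference of centred log2 signal, as a description. For GABARAPL1 they were KLHL21 (0.272), PLIN2 (0.426), POLR2J4 (0.476) and PTGES (0.543), where the median over all genes was 1.54. KLHL21 differed from ethanol by 5.09 in Maraviroc IC50 and from DMSO by 1.53 and 1.42 with DZH_2 IC20 and IC50. PTGES, a prostaglandin synthase, stood 3.76 above ethanol in Maraviroc IC50, with 2.34 and 2.50 for DZH_2, closest of the 4 to GABARAPL1 in the DZH_2 arrays. In Maraviroc IC20, however, PTGES gave -0.72 where GABARAPL1 gave 0.33. For SQSTM1 they were DUSP10 (0.341), a phosphatase of stress kinases, TPRA1 (0.379), ZFP36 (0.395), which promotes decay of transcripts, and TM4SF19 (0.434), against a median of 1.28. For ATG5, which varied little, they were C3orf38 (0.164), PEAK1 (0.189), TNRC6C (0.196) and PDCD5 (0.196), against a median of 0.439. The 13 arrays share groups, so the likeness rests on 7 conditions.

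**Figure D4:**
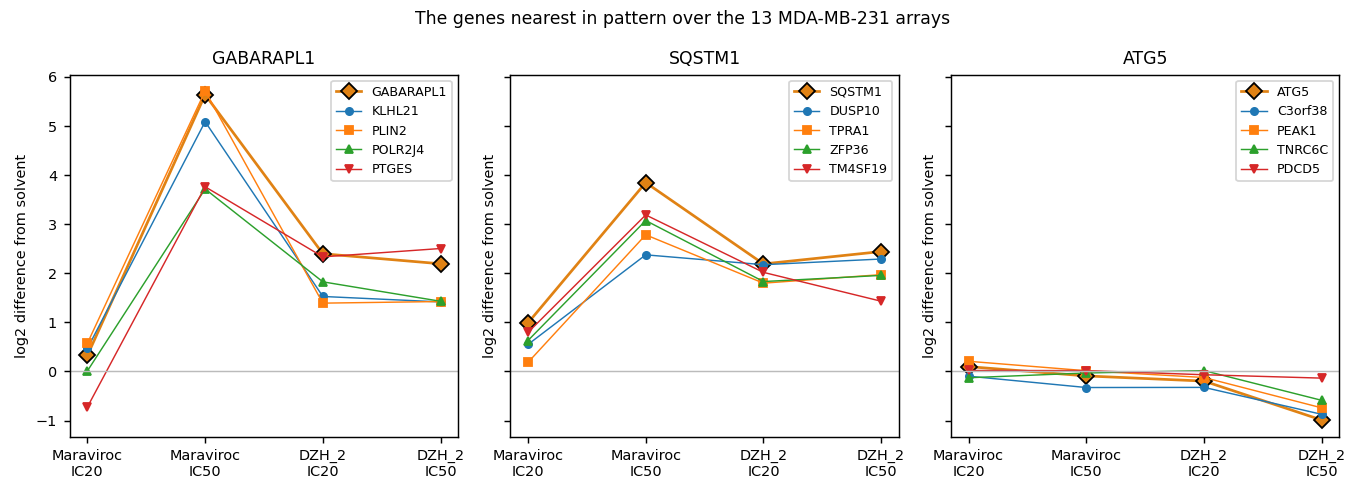
Log2 difference from solvent (vertical axis) of each of the 3 genes (orange diamonds) and the 4 genes nearest to it in pattern, for Maraviroc and DZH_2 at IC20 and IC50 in MDA-MB-231. GABARAPL1 and PLIN2 peak together in Maraviroc IC50, at 5.64 and 5.71, DUSP10 lies below SQSTM1 there but at 2.18 and 2.29 with DZH_2, and the 5 genes around ATG5 stay within 1 of their solvent.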

How the data were processed

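Expression was measured on Affymetrix arrays (WT PLUS kit, per the labels' protocols). The authors deposited 1 log2 signal per array for each of 24351 probe sets; how they summarised and normalized it stands in none of the sources used. A single gene symbol was paired with 17709 probe sets through Entrez identifiers, while 2903 were controls and 3739 were unnamed. For 20 genes with several probe sets, that with the highest mean was used, which left 17687 genes. Precision is limited by the number of arrays.

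Titles gave the groups. One limma 3.58.1 model covered 12 MDA-MB-231 arrays, those of the 6 groups with replicates (R 4.3.3; 6 residual degrees of freedom; 2-sided tests), with Benjamini-Hochberg adjustment over all genes and a threshold of 0.05. "Near the negative controls" means a group mean under the 75th percentile of 612 negative control probe sets. MCF10 groups of 1 array were only described, with a log2 difference of 1 at both doses as the criterion. The limma fit was tested on simulated data for DZH_2 IC50 against DMSO, and the MCF10 criterion was not. The simulation gave each gene the same spread in all groups, unlike the arrays, so it cannot speak to unequal spread.

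The 3 genes and the gene lists were chosen with earlier results of these data known. Genes named were the 3 genes, the ATG8 family, the conjugation genes around ATG5, up to 8 called rises and 8 falls per compound against solvent (both treated arrays beyond both solvent arrays) among the listed genes, and the 4 genes most like each member. KEAP1, TXNRD1, ATG4C, ATG9A, ATG9B, the genes named for MCF10 and the motif TGACGTCA were chosen after their values were seen. Alternatives were quantile normalization, median centring, array weights, a filter on dim genes (11745 left), the compared groups alone, other control sets, the replicate block and leaving out each array.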

Additional observations from a re-analysis of the deposited data

Results flagged for a closer look

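Of the 89 measured genes made up of the 3 genes and the listed autophagy and NRF2 genes, 15 (16.9%) had differences from DMSO that pointed one way on all 4 MDA-MB-231 arrays with DZH_2 and the other way on both MCF10 arrays. Of all 17687 genes 14.8% did so, and no difference between the lines was tested. Each MCF10 group is 1 array.

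ATG5 was higher in MCF10, with a mean difference of 1.81, and lower in MDA-MB-231, with -0.59, a gap of 2.40. Its MCF10 DMSO value was near the negative controls, so the gap has no firm size, and without the low DZH_2 IC50 array the MDA-MB-231 mean was -0.20. The same direction was seen in 6 others, given here as the MCF10 mean minus the MDA-MB-231 mean. The gap was 3.33 for TAX1BP1, also near the negative controls in MCF10 DMSO, 3.07 for SLC7A11, 1.68 for SNAP29, 1.57 for ATG3 and 1.22 for ATG10. It was 0.32 for MAP1LC3A, near the negative controls in MDA-MB-231 DMSO.

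The opposite direction, lower in MCF10 and higher in MDA-MB-231, was seen in 8 genes. The gap was -2.06 for YKT6, -1.95 for WIPI2, -1.69 for EPG5 and -1.53 for FOXO1. It was -1.10 for ATG13, -1.04 for ATG4B, -0.94 for FKBP8 and -0.89 for RPTOR.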

How the results depend on the processing

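SQSTM1 kept its direction with both doses of DZH_2 under all alternatives. In settings that kept every compared array, the limma adjusted p was 0.000941 to 0.0235 at IC20 and 0.000414 to 0.00799 at IC50. Leaving out single arrays gave differences of 1.78 to 2.61 at IC20 and 2.27 to 2.61 at IC50, and the lost calls are given above. The difference of ATG5 in Maraviroc IC50 turned to 0.16 with quantile normalization and 0.0782 with median centring, and ran from -0.38 to 0.20 without single arrays. That of SQSTM1 between solvents ran from -0.29 to 0.0389 (without ethanol replicate 1), and the gap of GABARAPL1 between the compounds at IC20 from 1.66 to 2.48. The cause was not tested.

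The 31 other autophagy genes called in Maraviroc IC50 became 17 with the compared groups alone and 20 to 35 without single arrays, while the count over all genes went from 4778 to 2399 and 2995 to 5080. With all 5 control arrays 38 of the listed genes (50%) were called, against 38.7% of all genes. With the filter on dim genes 32 (44.4%) were called, against 39.3% of the genes left. Median centring moved the median of all genes in Maraviroc IC50 from 0.11 to 0.28. In DZH_2 IC20 the count of 0 became 2 with array weights, 3 without the Maraviroc IC50 arrays and 1 with all 5 control arrays, where 488, 495 and 419 of all genes were called in place of 154. In DZH_2 IC50 it became 1 with the replicate block, 4 with array weights, 2 with the compared groups alone, 4 without the Maraviroc IC50 arrays and 1 with all 5 control arrays, where 347, 942, 817, 837 and 635 of all genes were called in place of 277. The cause was not tested. Replicate numbers were taken as shared numbers only, since same-numbered arrays correlated at 0.122, 0.252, 0.069 and -0.034 in their deviations.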
